A study of Mus musculus with 10 samples.

Results

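The genes examined here encode the subunits, and some of the assembly factors, of the mitochondrial respiratory chain and ATP synthase. They were chosen by name, as every row of the count table whose symbol starts with *Nduf*, *Uqcr*, *Atp5*, *Cox4*, *Cox5*, *Cox6*, *Cox7* or *Cox8*. This gave 88 of the 22000 rows, and 85 of them passed edgeR's filter on low counts, which kept 14344 genes in all. The other 3 members are *Cox7b2*, *Cox8b* and *Cox8c*, and their counts are given with their paralogs. By symbol, the 88 genes comprise 7 core and 29 accessory subunits of complex I, 7 complex I assembly factors, 8 subunits of complex III, 18 of complex IV, the pair *Ndufa4* and *Ndufa4l2*, 15 subunits of ATP synthase, and the similarly named pair *Atp5s* and *Atp5sl*. The groups follow the symbol alone, and single proteins, such as that of *Cox7a2l*, may have another role.

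RNA came from the prefrontal cortex (PFC) of 10 mice, 5 *Zbtb16* KO and 5 wild-type (WT), all described as male and aged 7 weeks, and each mouse gave 1 mRNA library. KO animals carried 2 copies of *luxoid* (*lu*), a nonsense point mutation in the transcription factor gene *Zbtb16* kept on a B6.C3 background, and therefore lacked the intact gene in every cell from conception. RNA integrity numbers (RIN) split the mice into 2 classes, 8.1 to 8.3 in WT mice 3 and 4 and KO mice 3 and 5 (low) and 9.5 to 9.8 in the other 6 (high), with 3 high and 2 low mice in each genotype.

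The respiratory chain passes electrons from NADH and succinate to oxygen and pumps protons across the inner mitochondrial membrane, and ATP synthase uses the proton gradient to make ATP. Complex I oxidises NADH, complex III passes electrons from ubiquinol to cytochrome *c*, and complex IV hands them to oxygen. Neurons depend on this route for most of the ATP that ion pumping and synaptic transmission consume, and most of its subunits are encoded in the nucleus, made in the cytosol and imported.

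Libraries held 30220122 to 51231439 counts, and the floor of 3 counts was 0.058 to 0.0997 CPM (counts scaled to the size of the library). *Zbtb16* itself had 47.4 ± 4.96 CPM in KO and 79.0 ± 7.23 CPM in WT mice (SD, n = 5 each; exact two-sided permutation test, p = 0.00794, the smallest that 5 against 5 allows). In KO mouse 3, labelled male, the sum over *Uty*, *Kdm5d*, *Eif2s3y* and *Ddx3y*, all on the Y chromosome, was 1 count, against 4376 to 8182 in the other mice. KO mouse 5 stood apart, with a weight of 0.87 on the first surrogate variable against -0.30 to 0.11 in the others. Striatal marker genes, which mark tissue next to the PFC, summed to 254 to 496 CPM, with the highest sum in WT mouse 5, and the excitatory neuron markers of cortex summed to 5375 to 6664 CPM. Choroid plexus markers were low (1.61 to 3.76 CPM for 4 genes together).

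Short stretches of promoter are shown first, because a textbook route to these genes runs through nuclear respiratory factor 1 (NRF1), YY1 and the ETS factor GABP. RefSeq promoters of GRCm38.p6, 250 bases before to 50 after the start site, were given for 73 of the 88 genes. The palindromic NRF1 motif, spelled by the 10 capitals in the stretches shown here, was found in 7 of the 73 (9.59%), against 1.58% of 15560 promoters of genes in the count table. On either strand, the YY1 letters AAGATGGC were found in 11 (15.1%, against 3.76%) and the ETS letters CCGGAAGT in 5 (6.85%, against 6.07%). A match describes the letters and not a bound site. The 5 genes whose NRF1 match and 10 bases on either side lie wholly before the RefSeq start site are *Ndufaf4*, *Ndufa11*, *Cox6a1*, *Atp5g2* and *Atp5k*, given here on the gene's strand with the match in capitals. Gencode M21, used for gene positions elsewhere, starts *Atp5g2* further upstream, at 102672352, so its stretch lies inside that gene. It starts *Atp5k* at 108434448, within the stretch shown. *Ndufaf4* among the 5 had the smallest p between the genotypes but was not called (edgeR adjusted p = 0.176). Over 20 alternative fits, its log2 fold change, KO against WT, was -0.23 to -0.17. That of *Ndufa11* was 0.011 to 0.097, of *Cox6a1* 0.0046 to 0.11 and of *Atp5g2* -0.10 to 0.0094. *Atp5k* was at 0.026 in the main fit. Whether a match goes with a genotype difference was not tested.
Ndufaf4 (chr4:24897960-24897989, plus strand): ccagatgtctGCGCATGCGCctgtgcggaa
Ndufa11 (chr17:56717692-56717721, plus strand): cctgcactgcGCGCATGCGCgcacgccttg
Cox6a1 (chr5:115349101-115349130, minus strand): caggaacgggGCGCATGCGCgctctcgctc
Atp5g2 (chr15:102671070-102671099, minus strand): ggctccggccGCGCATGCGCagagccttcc
Atp5k (chr5:108434430-108434459, minus strand): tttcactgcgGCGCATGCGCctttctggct

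Across the 10 mice, transcripts of the 88 genes made up 0.871% to 0.963% of all counts. The share was 0.904 ± 0.0275% in KO and 0.919 ± 0.0283% in WT mice (SD, n = 5 each), with overlap between the genotypes. Levels were steady between mice. The median coefficient of variation over the 10 mice was 5.74% for the 85 tested genes and 8.69% for all tested genes. Among genes at 10 CPM or more, where counting error weighs less, the median was 5.56% for members and 6.72% for all such genes. There the coefficient was below 10% for 77 of 79 members (97.5%) and for 79.8% of all such genes. These sets are not matched for level.

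Levels of different genes are compared per kilobase of transcript, taken from the best supported coding transcripts in Gencode M21. For 5 members, *Atp5g1*, *Atp5g2*, *Ndufab1*, *Ndufb2* and *Uqcrq*, those transcripts differ in length by over 1.5 times, and their levels per kilobase are uncertain. The median level was 70.2 CPM per kb for complex I core subunits, 67.8 for accessory subunits, 114 for complex III, 174 for complex IV, 147 for ATP synthase and 17.9 for complex I assembly factors. The assembly factors, which help build the complex and are not part of the finished enzyme, lay between 4.72 (*Ndufaf6*) and 20.004 CPM per kb (*Ndufaf5*), all below the lowest core subunit.

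**Figure D1:**
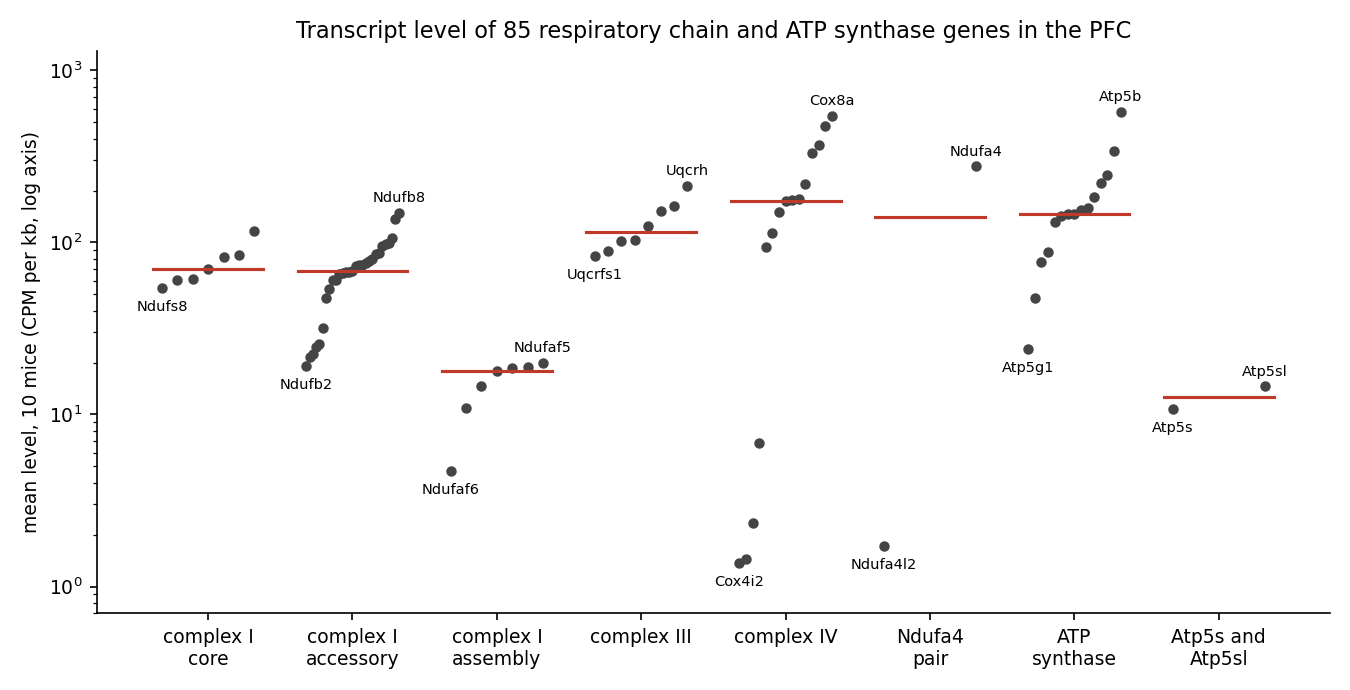
Mean level over 10 mice of each of the 85 tested genes, in CPM per kb of transcript on a log axis, by complex. Points are genes, red lines are medians, and the lowest and highest gene of each set are named (for the complex I core, the lowest). ATP synthase and complex IV hold the highest levels (*Atp5b*, 576, and *Cox8a*, 544), and 4 low paralogs of complex IV, *Ndufa4l2* and the assembly factor *Ndufaf6* lie below 10.

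In complex I, the core subunits carry the flavin, the iron-sulfur clusters and the quinone site. *Ndufs8*, which holds iron-sulfur clusters, had the lowest level of the core (54.2 CPM per kb). *Ndufv1*, whose protein binds NADH, had 145, 133, 136, 140 and 144 CPM in KO mice 1 to 5 and 139, 138, 140, 140 and 138 CPM in WT mice 1 to 5, so the WT values lay inside the KO range. *Ndufs1*, the largest core subunit, had 157, 140, 156, 160 and 160 CPM in KO and 160, 171, 158, 162 and 171 CPM in WT mice. KO mouse 2 was the low value, and the other 4 KO mice overlapped WT mice. Among the accessory subunits, which surround the core, *Ndufb8* had the highest level (149 CPM per kb). *Ndufb2* was lowest at 19.0 with a length midway between its 455- and 4371-base transcripts, and would be at 101 with the shorter one.

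Complex III levels spanned 83.8 (*Uqcrfs1*, the Rieske iron-sulfur protein) to 213 CPM per kb (*Uqcrh*, the hinge protein near cytochrome *c*1). The core proteins *Uqcrc1* and *Uqcrc2* had 125 and 104 CPM per kb, and the ratio of the first to the second was 1.23 ± 0.0424 in KO and 1.19 ± 0.0547 in WT mice (SD, n = 5 each). In complex IV, the highest levels were those of *Cox8a* (544 CPM per kb), *Cox4i1* (474), *Cox6a1* (370) and *Cox6c* (329), all small nuclear-encoded subunits around the catalytic core that mitochondrial DNA encodes. *Cox5a* and *Cox5b* had 174 and 179 CPM per kb.

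In ATP synthase, the F1 head consists of alpha, beta, gamma, delta and epsilon subunits, with alpha and beta present in several copies for each gamma. The beta subunit gene *Atp5b* had the highest level of all 88 genes, 576 CPM per kb, followed in the head by alpha, *Atp5a1*, with 341, then delta, *Atp5d*, with 183, gamma, *Atp5c1*, with 158, and epsilon, *Atp5e*, with 132. Per kilobase, the ratio of beta to gamma transcripts was 3.67 ± 0.0734 in KO and 3.63 ± 0.203 in WT mice, and that of alpha to gamma 2.19 ± 0.0505 and 2.12 ± 0.135 (SD, n = 5 each). *Atp5b* was also the steadiest member, with a coefficient of variation of 1.53%. Its level was 1114, 1083, 1084, 1108 and 1085 CPM in KO mice and 1111, 1121, 1099, 1102 and 1134 CPM in WT mice. The genotypes overlapped, and the widest gap between any pair of mice was 1.05-fold. Its partner *Atp5a1* had 845, 812, 839, 838 and 885 CPM in KO and 839, 832, 838, 856 and 833 CPM in WT mice, and KO mice held both the lowest and the highest value. The membrane ring subunit c is made from 3 genes that encode the same mature protein. *Atp5g3* had 176.9 ± 6.51 CPM in KO and 175.1 ± 6.51 in WT mice, *Atp5g1* 112.9 ± 4.68 and 110.4 ± 3.48, and *Atp5g2* 27.7 ± 1.64 and 28.2 ± 2.32 (SD, n = 5 each). Because of the uncertain lengths, these 3 are not ranked per kilobase.

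Several complex IV subunits and NDUFA4 have a paralog known from other tissues. The paralogs were scarce in the PFC of every mouse. Per kilobase, *Cox4i2*, the lung form linked to hypoxia, made up 0.149% to 0.395% of the *Cox4i1* and *Cox4i2* sum. *Cox6a2*, the heart and muscle form, made up 1.35% to 2.24% of its pair, and *Cox7a1*, also a heart and muscle form, 0.600% to 2.79%. *Cox6b2*, the testis form, accounted for 0.380% to 1.01% of its pair, and *Ndufa4l2* for 0.375% to 1.03%. *Cox8c* had no count in any library, which allows up to 0.058 to 0.0997 CPM, depending on the mouse, for counting error only. *Cox8b* had 0, 0, 4, 1 and 0 counts in KO and 1, 10, 2, 0 and 4 in WT mice. *Cox7b2* had 8, 3, 7, 3 and 17 counts in KO and 1, 11, 13, 18 and 8 in WT mice. These last 3 were too low to test. In bulk tissue, fewer cells that make a transcript and less of it per cell cannot be told apart.

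The first comparison asked whether the level of these genes differed between KO and WT mice. No member passed the threshold of 0.05 on the adjusted p of edgeR's fit with 3 surrogate variables, which are weights per mouse that take up differences between libraries not recorded in the labels. The same test called 121 of all 14344 genes (0.844%). At an unadjusted p under 0.05 there were 7 members, 1 higher and 6 lower in KO, which is 8.24% of 85 against 10.6% of all genes (5.51% higher and 5.1% lower). DESeq2 with the same variables also called none, with 6 at an unadjusted p under 0.05. The median log2 fold change of the 85 genes was -0.022, beside -0.0044 over all genes, and 56 of the 85 (65.9%) were below 0, beside 51.9% of all genes. Leaving out KO mouse 3 moved the median to -0.014, leaving out KO mouse 5 also to -0.014, and leaving out both, without surrogate variables, to -0.031, with no member called in any of these. Without KO mouse 3, and likewise without WT mouse 3, 3 members had an unadjusted p under 0.05. The share of all genes at that p is not given for these fits or for DESeq2, so these counts carry no comparison. The median lay between -0.056 (69 of 85 below 0), in the 6 mice with high RIN alone, and 0.0068 (38 of 85 below 0), without KO mouse 4.

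The intervals around these values were narrow. For 76 of the 85 members (89.4%), the whole 95% interval of the log2 fold change lay within 0.25 of 0, which is 0.841- to 1.19-fold, and the same held for 57.5% of all genes. These shares are not matched for level: the median was 66.8 CPM for members and 24.9 CPM for all tested genes. The 9 members with wider intervals were the 5 scarce genes *Cox4i2*, *Cox6a2*, *Cox6b2*, *Cox7a1* and *Ndufa4l2*, the assembly factors *Ndufaf2*, *Ndufaf4* and *Ndufaf6*, and *Ndufb4*. For the F1 subunits *Atp5a1* and *Atp5b*, the log2 fold changes were -0.00082 (95% interval -0.058 to 0.057) and -0.014 (-0.070 to 0.042). Intervals were also within 0.25 for all 7 core subunits of complex I, all 8 subunits of complex III and all 15 of ATP synthase.

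**Figure D2:**
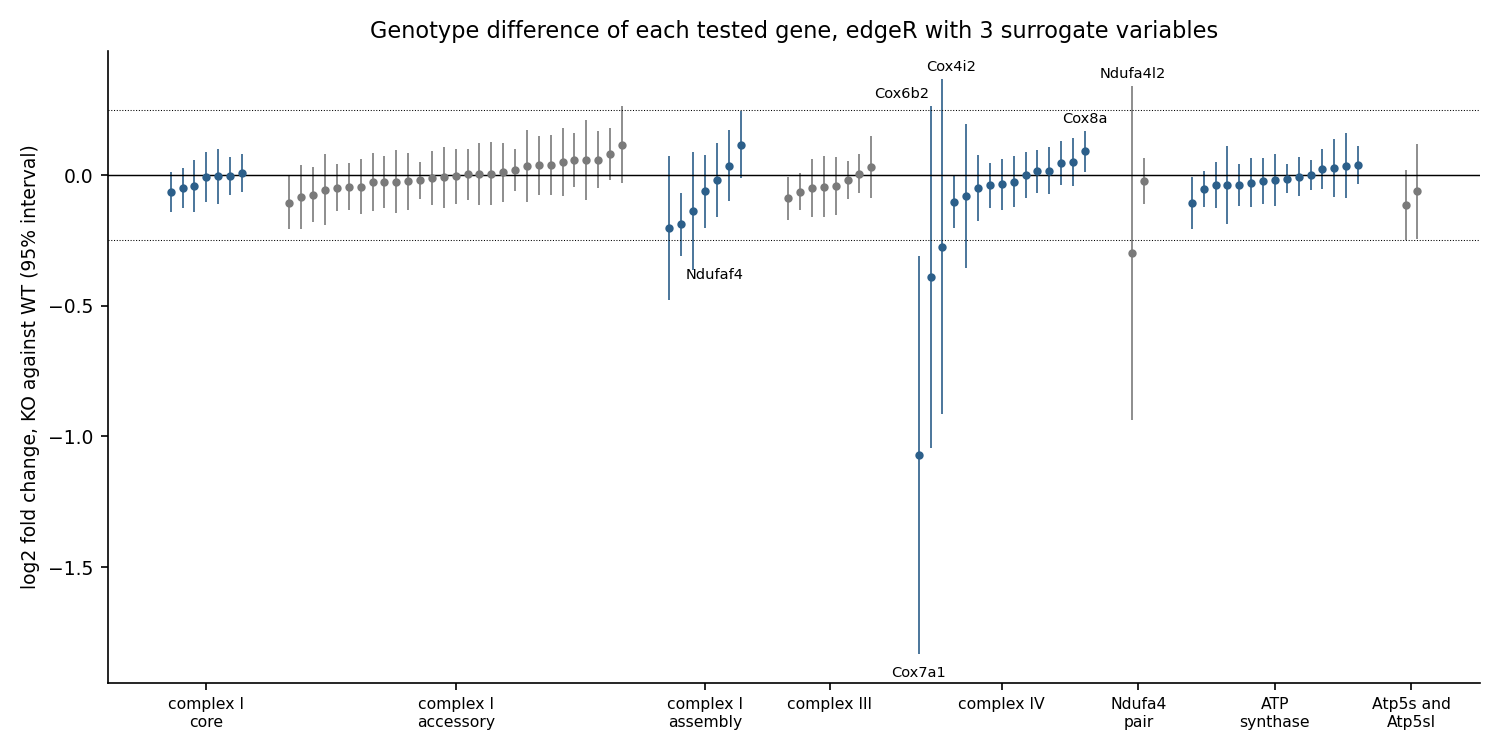
Log2 fold change, KO against WT, of each of the 85 tested genes (points) with its 95% interval (bars), by complex, in edgeR's fit with 3 surrogate variables. Dotted lines mark -0.25 and 0.25. The intervals of 76 genes lie between the lines, and the long bars belong to low-abundance genes such as *Cox7a1*, *Cox6b2*, *Cox4i2* and *Ndufa4l2*.

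By complex, the median log2 fold change was -0.0068 for the complex I core (6 of 7 below 0), -0.0045 for its accessory subunits (15 of 29), -0.062 for its assembly factors (5 of 7), -0.043 for complex III (6 of 8), -0.036 for complex IV (9 of 15) and -0.018 for ATP synthase (11 of 15). The medians of the complex I core, the accessory subunits, the assembly factors and complex IV each changed sign when some single mouse was left out. Single genes chosen for their function lay near 0. *Ndufs1* was at -0.064, *Ndufv1* at 0.0078, *Uqcrc1* at 0.0048, *Uqcrc2* at -0.063, *Uqcrfs1* at -0.019, *Cox4i1* at 0.046 and *Cox5a* at 0.014, and the smallest adjusted p among them was 0.541 (edgeR). Complex II, which oxidises succinate and shares its *Sdh* genes with the Krebs cycle, had a median of -0.023 over 4 genes.

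Of the 8 members with the smallest p, *Ndufaf4* came first. It encodes an early assembly factor of complex I and lies on chromosome 4 of GRCm38 from 24898083 to 24905001 (plus strand). It had 40.7, 37.3, 37.7, 34.7 and 31.0 CPM in KO mice 1 to 5 and 38.7, 44.5, 42.5, 43.3 and 43.6 CPM in WT mice 1 to 5. The lowest WT mouse lay below the highest KO mouse, and KO mouse 5 was the lowest of all. The log2 fold change was -0.19 (standard error 0.0571, 95% interval -0.31 to -0.068, edgeR adjusted p = 0.176). Over all 20 alternatives it lay between -0.23 and -0.17, with adjusted p from 0.0699 to 0.739.

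*Cox7a1* had the largest fitted difference of the 85. It lies on chromosome 7 from 30184144 to 30186078 (plus strand) and was detected at 0.649, 0.532, 0.339, 0.590 and 0.850 CPM in KO mice and 1.76, 1.11, 1.47, 1.45 and 0.512 CPM in WT mice. WT mouse 5 fell among the KO mice, while the other 4 WT mice lay above all KO mice. The log2 fold change was -1.07 (standard error 0.359, edgeR adjusted p = 0.243). Across the 20 alternatives it ranged from -1.33 to -0.80, with adjusted p from 0.132 to 0.753. In brain, *Cox7a1* is best known from the smooth muscle and pericytes of vessels. Endothelial and mural marker genes, 6 of 6 detected, summed to 237 to 264 CPM in KO and 237 to 272 CPM in WT mice, and the mural markers *Rgs5*, *Pdgfrb* and *Acta2* together to 130 to 149.9 and 128 to 157 CPM. Most of the mural sum was *Rgs5*, which was lowest in WT mouse 5 (103 CPM), while *Pdgfrb* was lowest in WT mouse 2 and *Acta2* in KO mouse 1. In the genotype fit, the log2 fold changes were -0.34 for *Acta2*, -0.17 for *Flt1* and -0.12 for *Cldn5*. They were -0.061 for *Pecam1*, -0.044 for *Pdgfrb* and -0.014 for *Rgs5* (edgeR adjusted p of 0.264 or more for all 6). The part of vessel cells in the difference was not tested.

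*Cox8a*, a complex IV subunit on chromosome 19, was the one member higher in KO at an unadjusted p under 0.05. Its level was 313, 290, 304, 302 and 326 CPM in KO and 308, 304, 279, 289 and 275 CPM in WT mice, with overlap between the genotypes (log2 fold change 0.091, edgeR adjusted p = 0.361). *Cox7b*, on the X chromosome, was the one member without overlap, 1.18% of 85 against 1.58% of all tested genes (0.683% with KO below WT and 0.899% with KO above). Its level was 111, 109, 106, 111 and 112 CPM in KO and 115, 132, 120, 115 and 113 CPM in WT mice, while the gap between the highest KO and the lowest WT mouse was smaller than the spread within either genotype (log2 fold change -0.10, edgeR adjusted p = 0.450). *Uqcrh* had 112.9 ± 3.99 CPM in KO and 120.6 ± 4.53 in WT mice, *Ndufb7* 43.9 ± 1.47 and 47.5 ± 2.18, and *Atp5e* 54.4 ± 5.46 and 57.0 ± 1.40 (SD, n = 5 each), with adjusted p of 0.430, 0.462 and 0.428. For *Atp5e*, KO mouse 5 was at 63.7 CPM, above every other mouse, and the other 4 KO mice at 49.8 to 54.0 lay below all WT mice. *Ndufaf3*, an assembly factor of complex I, had 27.4 ± 1.17 CPM in KO and 25.9 ± 1.96 in WT mice and the next smallest p (log2 fold change 0.12, adjusted p = 0.528).

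**Figure D3:**
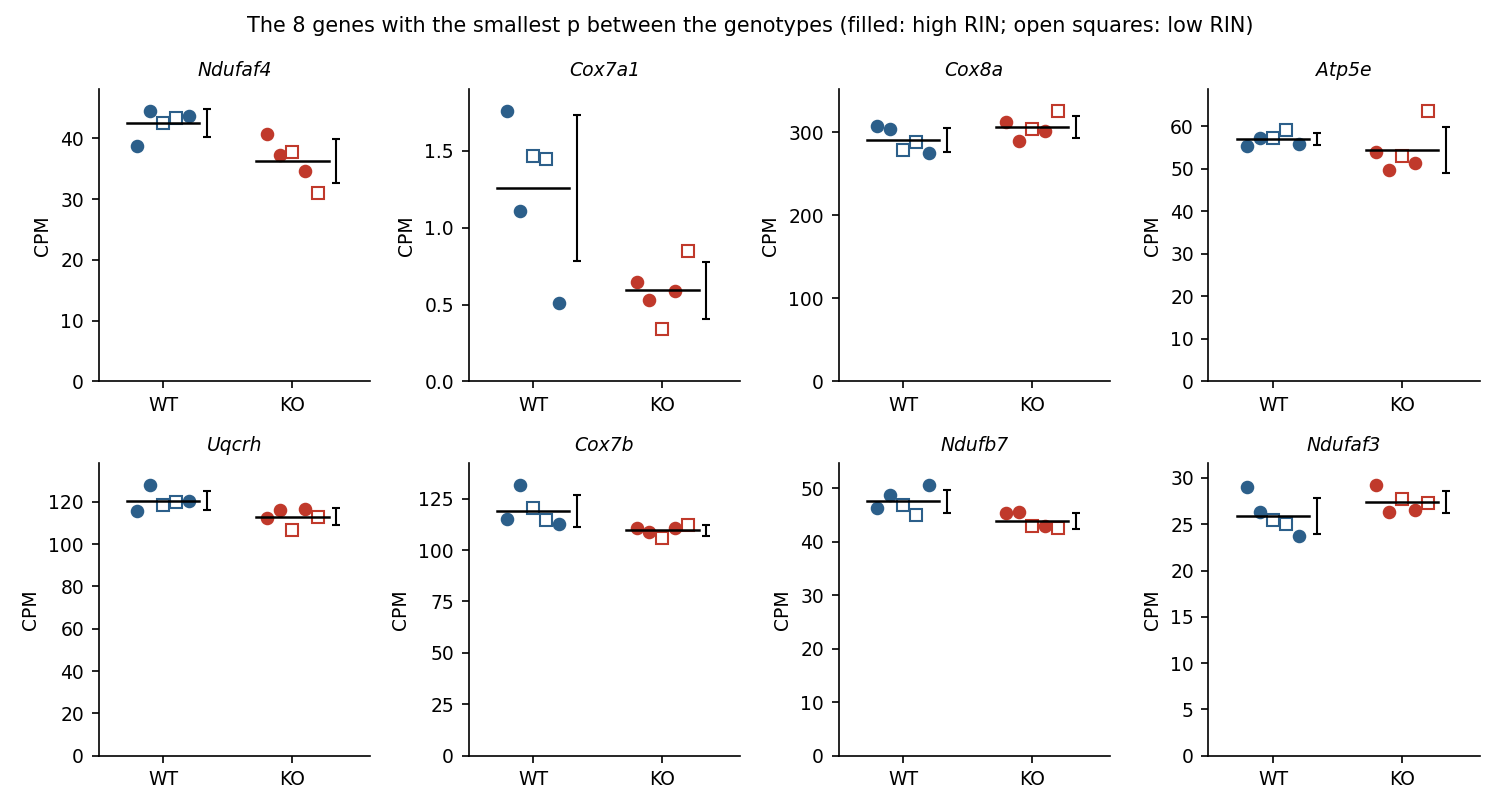
CPM of the 8 members with the smallest p between the genotypes, in each mouse, with the group mean (line) and SD (bar); axes start at 0. Filled circles are mice with high RIN and open squares mice with low RIN. For *Cox7b* alone, the highest KO mouse (112.0) lies below the lowest WT mouse (112.9).

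*Zbtb16* lies on chromosome 9 from 48654297 to 48836222, where 5 members also lie. The nearest, *Atp5l*, is 3.73 Mb away (log2 fold change 0.036), and *Cox5a* 8.69 Mb (0.014). *Atp5l*, the g subunit of ATP synthase, is also the member with most sequence in common with other transcripts, 61.3% of its 101-base stretches, so its count of uniquely mapped reads is uncertain. The same share was 20% or more for *Atp5h*, *Atp5o* and *Ndufb4*. Exons of *Ndufa13* and *Ndufb6* overlap a gene on the other strand over 29.98% and 39.0% of their length, and whether reads were counted by strand is not given in the sources used here.

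Each complex was also summarised as a score per mouse, obtained by centring log2(CPM + 1) of each gene on its 10-mouse mean and averaging over the genes. The scores are described without a test. WT mouse 2 had the highest score in all 5 main sets (complex I core, complex I accessory, complex III, complex IV and ATP synthase) and the highest level of any mouse in 42 of the 85 genes. KO mouse 3 had the lowest score in 3 of the 5 sets and the lowest level in 21 genes, and KO mouse 2 the lowest level in 18. KO mouse 5 had the highest level in 15 genes, and its scores were above those of the other 4 KO mice in every set but the complex I core, where it came second. KO mouse 5 and WT mouse 2 also had the largest libraries, 51231439 and 47343536 counts, against at most 36066876 in the others. The part of library size was not tested.

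For complex IV, the scores of KO mice 1 to 5 were -0.024, -0.035, -0.12, -0.034 and 0.056, and those of WT mice 1 to 5 were 0.042, 0.11, -0.043, 0.0093 and 0.037. KO mouse 3 was lowest and KO mouse 5 second highest of all 10. For ATP synthase, the KO scores were 0.016, -0.049, -0.051, -0.018 and 0.046 and the WT scores 0.035, 0.049, -0.0094, -0.018 and -0.0012, with overlap. The KO mean minus the WT mean was -0.044 for the complex I core, -0.019 for its accessory subunits, -0.036 for complex III, -0.061 for complex IV and -0.022 for ATP synthase. Each was smaller than the larger of its own pair of SDs except for the complex I core and complex IV (SD 0.0423 and 0.0607 in KO mice), which it exceeded slightly. The complex IV score gives scarce genes the same weight as abundant ones. Among them, *Cox7a1*, with the largest fitted difference of the set, had 11 to 44 counts in KO and 18 to 53 in WT mice. A score without the scarce genes is not given here.

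**Figure D4:**
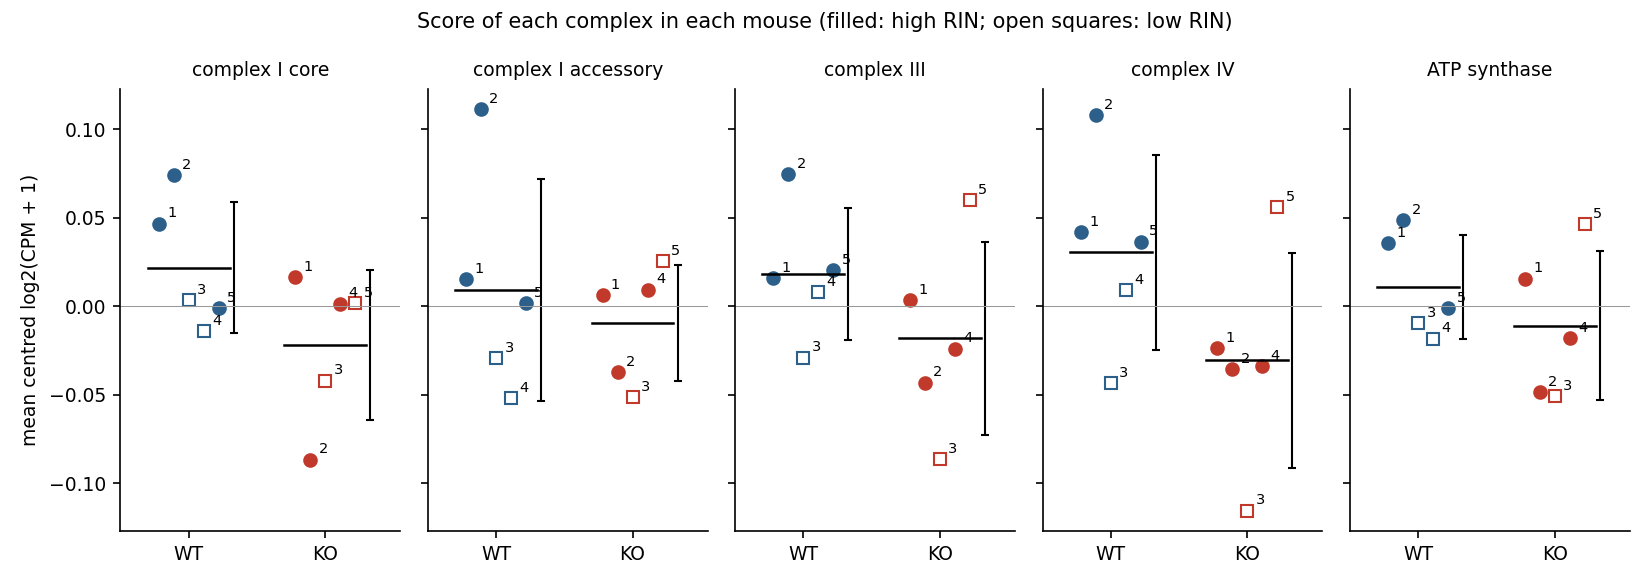
Score of each of 5 complexes in each mouse, the mean of centred log2(CPM + 1) over its genes; lines are group means, bars SD (n = 5), and numbers name the mouse within its genotype. Filled circles are mice with high RIN and open squares mice with low RIN. WT mouse 2 is highest in every panel, and KO and WT mice overlap in every panel.

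Other genes of the pathway were read from fixed lists. The 13 protein genes of mitochondrial DNA were listed at 0 in all 10 libraries, so the subunits made inside mitochondria were not analysed here. None of 31 other assembly factors was called between the genotypes. At an unadjusted p under 0.05, *Uqcc1* (complex III assembly) and *Nubpl* (complex I iron-sulfur cluster assembly) were lower in KO (-0.098 and -0.32), 2 of 31 beside 10.6% of all genes. The median of the 31 was -0.020, with 23 below 0 (74.2%, beside 51.9% of all genes), and their score was -0.024 ± 0.0184 in KO and 0.024 ± 0.0251 in WT mice (SD, n = 5 each). The genotypes overlapped in this score, with WT mouse 3 (-0.0081) below KO mouse 4 (-0.0030). Cytochrome *c* (*Cycs*) had 83.0 ± 2.03 CPM in KO and 89.9 ± 6.79 in WT mice (SD, n = 5 each), a log2 fold change of -0.072 (edgeR adjusted p = 0.645). Of 10 transcription regulators of mitochondrial genes, none was called or reached an unadjusted p under 0.05. *Ppargc1a*, the coactivator PGC-1 alpha, had 60.6 ± 4.41 and 60.4 ± 3.70 CPM, and *Nrf1* 16.3 ± 0.944 and 16.6 ± 1.16 CPM. The median log2 fold change was -0.015 for 77 mitochondrial ribosome genes and -0.023 for 82 cytosolic ribosome genes, with none called in either, and -0.017 over all genes with a transcript of at most 2307 bases, to which 78 of the 85 members belong.

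The second comparison followed RIN, a measure of RNA degradation, by setting the 4 low against the 6 high mice in a fit with genotype and without surrogate variables. No member was called, and 48 of all genes were (0.335%). At an unadjusted p under 0.05 there were 2 members, both lower in low RIN, or 2.35% of 85 against 10.8% of all genes (5.47% higher and 5.31% lower). The median log2 fold change was -0.033, beside -0.00061 over all genes, and 70 of the 85 (82.4%) lay below 0, beside 50.2% of all genes. With the replicate number as a block the direction turned, to a median of 0.0076 with 37 of 85 below 0, although these numbers did not pair the mice. No member had RIN classes that did not overlap, against 2.5% of all tested genes. Cytosolic ribosome genes, with a median of -0.051 and 76 of 82 below 0, were shifted further the same way, and the median of all genes with a transcript of at most 2307 bases was -0.0082. Intervals lay within 0.25 for 75 of the 85 members, against 52.8% of all genes, again not matched for level.

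The median was -0.014 for the complex I core, -0.045 for its accessory subunits (27 of 29 below 0), -0.055 for its assembly factors, -0.029 for complex III, -0.034 for complex IV and -0.025 for ATP synthase. *Atp5s*, a factor related to ATP synthase, had 15.0 and 16.2 CPM in the low-RIN KO mice 3 and 5 and 15.5 and 14.3 CPM in the low-RIN WT mice 3 and 4. In the high-RIN mice it had 16.8, 16.5 and 15.5 CPM (KO) and 18.5, 17.5 and 19.4 CPM (WT). The classes did not overlap among WT mice, while KO mouse 4, of high RIN, lay among the low-RIN mice (log2 fold change -0.18, edgeR adjusted p = 0.358). *Ndufb9*, an accessory subunit of complex I, had 88.4 and 102.8 CPM in the low-RIN KO mice and 88.8 and 90.7 CPM in the low-RIN WT mice, against 95.4 to 103.1 CPM in the high-RIN mice. Here KO mouse 5, of low RIN, was second highest of the 10 (log2 fold change -0.11, edgeR adjusted p = 0.440). Further members in this direction were *Ndufaf1* (-0.15), *Ndufc1* (-0.13) and *Cox5a* (-0.082), with adjusted p of 0.469 or more.

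In the other direction, *Atp5e* had the smallest p, with 58.3 ± 4.39 CPM in low-RIN mice (SD, n = 4) and 53.9 ± 2.86 CPM in high-RIN mice (SD, n = 6), a log2 fold change of 0.11 (edgeR adjusted p = 0.484), and KO mouse 5 at 63.7 CPM was the highest. *Atp5g1* (0.062), *Atp5a1* (0.037), *Ndufa1* (0.061), *Uqcrc2* (0.036) and *Atp5l* (0.049) came next, all with adjusted p of 0.627 or more. Among the regulators, *Gabpa*, which encodes the DNA-binding subunit of GABP, had 24.2 CPM on average in low-RIN and 27.0 CPM in high-RIN mice (log2 fold change -0.16, adjusted p = 0.333). *Gabpa* overlaps *Atp5j* on the opposite strand.

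The 2 low-RIN KO mice lay far apart. Over all 85 genes, the score was -0.066 in KO mouse 3 and 0.030 in KO mouse 5, the lowest and the highest of the KO group, and -0.022 and -0.023 in WT mice 3 and 4, the 2 lowest of the WT group. Without KO mouse 5, 11 members had an unadjusted p under 0.05 (12.9%, beside 10.98% of all genes in that fit) and the median moved to -0.061. Without KO mouse 3 there were 2 (2.35%, beside 11.9%) and the median was -0.025, with no member called in either fit. Within WT mice alone (2 low against 3 high), the median was -0.076 with 72 of 85 below 0, beside -0.0037 over all genes, and within KO mice alone it was -0.0075 with 49 of 85 below 0. The third of all genes with the shortest transcripts had medians of -0.023 within WT and 0.0032 within KO mice. Those of cytosolic ribosome genes were -0.043 and -0.072, and of mitochondrial ribosome genes -0.034 and -0.0073. Neither fit called a member, and of all genes 0.302% were called within WT and 0 within KO mice. At an unadjusted p under 0.05 there were 5 members within WT mice (5.88%, beside 9.41% of all genes) and 0 within KO mice (beside 5.49%). The low-RIN WT mice also had the 2 lowest striatal marker sums of all 10 mice, 254 CPM each, and WT mouse 5, in the high class, the highest, 496 CPM. The low minus high RIN difference of the striatal sum was -95.1 CPM in WT and 14.6 CPM in KO mice. For oligodendrocyte markers it was -992 and -1342 CPM, and for excitatory neuron markers 369 and 355 CPM. It was -36.8 and -54.6 CPM for interneuron and -390 and -184 CPM for astrocyte markers. For microglia it was 12.7 and 6.20 CPM, and for endothelial and mural markers 10.5 and -6.07 CPM. The part of tissue composition in these shifts was not tested.

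**Figure D5:**
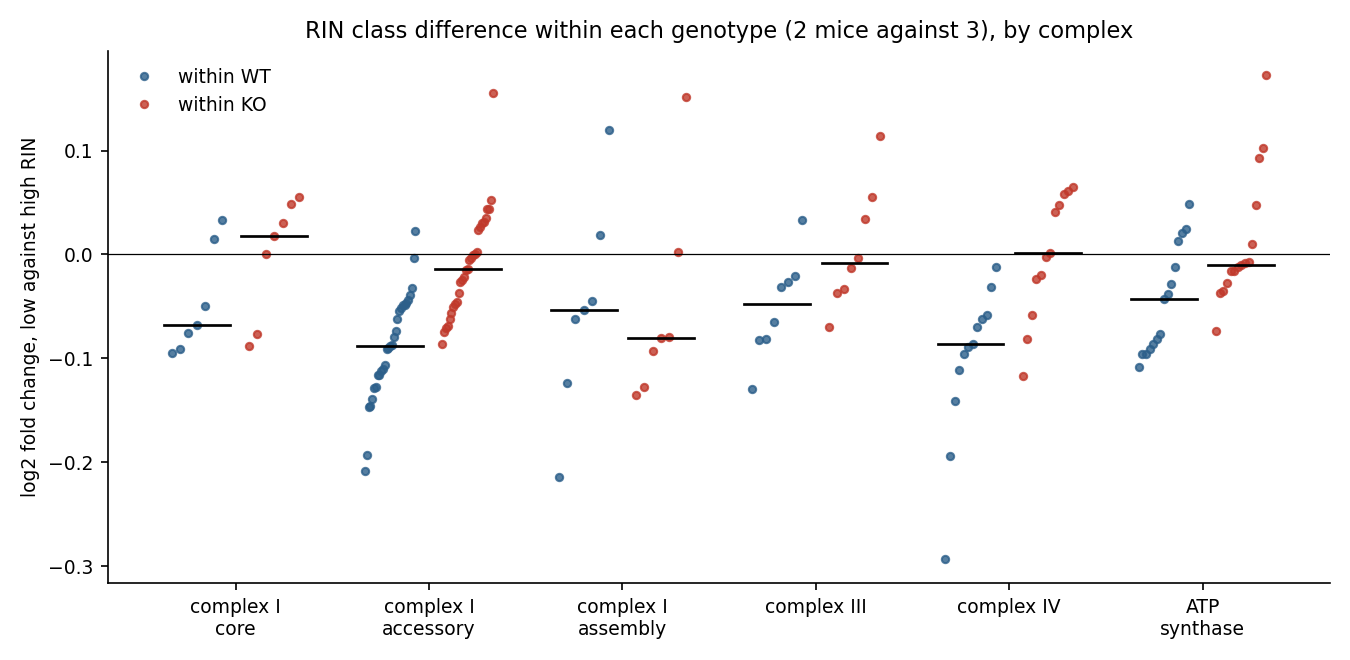
Log2 fold change of low against high RIN for each gene (points), fitted within WT mice alone and within KO mice alone, by complex; lines are medians over all tested genes of a complex. The scarce genes *Cox4i2*, *Cox6b2* and *Cox7a1* are not drawn but count in the medians. In 5 of the 6 sets, all but the assembly factors, the WT median lies below the KO median.

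A test of the difference itself, the genotype by RIN class interaction, called no member and no gene at all (0%). At an unadjusted p under 0.05 lay 505 of all genes (3.52%, 1.9% higher and 1.62% lower) and 1 of the 85 members. That member was *Ndufa4*, which was first placed in complex I and is now described as part of complex IV. It had 164 and 194 CPM in the low-RIN KO mice, 162, 157 and 168 CPM in the high-RIN KO mice, 160 and 165 CPM in the low-RIN WT mice and 175, 184 and 168 CPM in the high-RIN WT mice (interaction 0.26 on the log2 scale, edgeR adjusted p = 0.996). The low-RIN WT mice lay below the high-RIN WT mice, and KO mouse 5 lay above all others. The median interaction of the 85 genes was 0.076, beside 0.0022 over all genes, and 14 of the 85 (16.5%) lay below 0, beside 49.4% of all genes. It was 0.026 (43.5% below 0) over all genes with a transcript of at most 2307 bases. Mitochondrial ribosome genes were at 0.029 (31.2% below 0) and cytosolic ribosome genes at -0.026 (64.6%). By set, the median interaction was 0.10 for complex IV, 0.085 for the accessory subunits, 0.070 for the complex I core, 0.072 for ATP synthase, 0.035 for complex III and -0.021 for the assembly factors. With 2 low-RIN mice in each genotype, these values rest on few mice, and KO mouse 5 is 1 of them.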

How the data were processed

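Messenger RNA of the PFC of 10 mice was sequenced as stranded, paired-end libraries. The authors aligned reads to mm10 with STAR 2.7.1a, dropped multi-mapped reads and used HTSeq 0.9.1 (intersection-strict) to count unique reads over the exons that Gencode M21 gives for protein-coding genes. Raw counts were deposited. Genotype, replicate and RIN came from the labels. From the counts, CPM on TMM-scaled library sizes were computed. Genotypes were compared with edgeR 4.0.16 (R 4.3.3, quasi-likelihood test, Benjamini-Hochberg adjustment, threshold 0.05) with 3 surrogate variables (sva 3.50.0, run on log2(CPM + 1) values), and RIN classes with genotype as covariate. Fits and adjustment covered all 14344 genes. The genes and gene lists were chosen with earlier results of these data known. Genes were named by a fixed rule: the smallest p and largest change per comparison, core subunits, paralogs, and the highest and lowest level per complex. Values of 1 gene are not reported here. Alternatives covered covariates, normalization, filter, DESeq2 1.42.0, subsets of mice and each mouse left out. Scripts were tested on simulated counts. Floors cover counting error only. Positions come from Gencode M21 on GRCm38, promoters from RefSeq.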

Additional observations from a re-analysis of the deposited data

Results flagged for a closer look

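Within each genotype, the values of the genes chosen by the naming rule, of which the text gives a part, and the complex scores were searched for 1 mouse far from the other 4, by Dixon's test. Of 122 groups of 5 mice, 5 held such a mouse, and chance gives about 1 in 20. *Cox4i2* was at 0.507 CPM in WT mouse 3, against 1.14 to 1.28 CPM in the other WT mice. *Cox6b2* was at 1.25 CPM in KO mouse 2, against 0.522 to 0.709 CPM in the other KO mice. *Ndufa8*, an accessory subunit of complex I, was at 71.8 CPM in WT mouse 1, against 64.5 to 66.2 CPM. *Ndufb9* was at 88.4 CPM in KO mouse 3, against 98.8 to 102.8 CPM, and *Ndufs1* at 139.7 CPM in KO mouse 2, against 156.4 to 159.9 CPM. No complex score held a mouse this far from the others.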

How the results depend on the processing

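No member was called between the genotypes under any of 20 alternatives, which called 1 to 248 of all genes and left 2 to 10 members at an unadjusted p under 0.05. None was called between RIN classes under 20 alternatives either (0 to 271 of all genes, 0 to 11 members at an unadjusted p under 0.05). In the main fits, 10.6% (genotype) and 10.8% (RIN) of all genes had an unadjusted p under 0.05. That share is not given for each alternative, so the ranges of member counts carry no comparison. The smallest adjusted p of any member was 0.0699 between genotypes and 0.122 between RIN classes. Replicate numbers did not pair the mice: same-numbered mice had correlated deviations of 0.17, -0.0018, 0.12, -0.11 and 0.10, and 2 of 5 correlated best with their own number. With the replicate block, no member was called in either comparison, but the RIN medians became 0.054 for complex III and 0.045 for complex IV (0.0076 over all members, 37 of 85 below 0). In mice with RIN of 9.5 or above only, the genotype median was -0.056 over all members, -0.074 for the complex I core and -0.12 for its assembly factors. Within WT mice alone, the RIN median was -0.076 over all members, -0.068 for the complex I core and -0.26 for *Ndufa4* with *Ndufa4l2*, where KO mice alone gave 0.22. Leaving out 1 mouse at a time, the genotype median ranged from -0.029 to 0.0068 for all members (the highest without KO mouse 4), from -0.061 to 0.022 for complex IV (the highest also without KO mouse 4) and from -0.10 to 0.0024 for the assembly factors (the highest without WT mouse 3). The causes were not tested. All other medians moved by less than 1 SD between mice. Of 52 genes chosen by the naming rule, 28 kept their direction in all genotype alternatives and 21 in all RIN alternatives. Genes under 2 CPM are the least precise, since few reads stand behind each value.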
